A study of Mus musculus with 9 samples.

Results

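The 33 genes described here make or handle cholesterol and fatty acids, or control the genes that do. They were chosen by name from a list of these pathways, with earlier results of these data known, and matched to the gene name that the scanner files give each probe. All 33 were found among 34733 gene names on the array, through 51 probes. Every member's brightest probe was well above background on all 9 arrays. By role they are 8 genes of the mevalonate arm, 10 of the squalene and sterol arm, 5 regulators of the SREBP transcription factors, 1 sterol carrier, 7 fatty acid enzymes and 2 sterol exporters.

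Transcripts were measured on 9 single-colour microarrays of mouse RNA in 4 groups. EZH2-KO glioma tissue, on 3 arrays, was brain tumour of the MADM mouse background with EZH2 knocked out. MADM glioma cells, on 2 arrays, were cells of brain tumours of the same background, with no EZH2 genotype in their labels. Neural stem cells and astrocytes, on 2 arrays each, were normal wild-type brain cells of C57BL/6J mice. MADM, mosaic analysis with double markers, is a genetic method that makes rare marked mutant cells by recombination between chromosomes. EZH2 is the enzyme of Polycomb complex PRC2 that methylates histone H3 on lysine. The labels give no age, no driver of the EZH2 deletion, and no statement on whether arrays of a group came from separate animals or cultures. No group holds tumour tissue with EZH2 intact, so the knockout, the tumour and the mixture of cells in a tissue cannot be told apart.

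Cells make cholesterol from acetyl-CoA: the mevalonate arm builds farnesyl diphosphate, and the squalene and sterol arm turns it into cholesterol. The SREBP factors, held back in the endoplasmic reticulum by INSIG proteins and escorted to the Golgi by SCAP, switch these enzymes on when sterols are scarce. Sterol-sensing LXR receptors switch on the exporters ABCA1 and ABCG1. The brain makes its own cholesterol because lipoproteins do not cross the blood-brain barrier, and astrocytes and myelinating oligodendrocytes are known for high synthesis.

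Levels are given as log2 of the processed signal minus each array's 75th percentile, so a level compares arrays for 1 gene and not genes with each other. A gene passed when its limma adjusted p was under 0.05 and its difference at least 2-fold. The 75th percentile lay between 467 and 1015 intensity units, and 60.1% to 65.7% of spots were well above background. The number of arrays limits the precision. Ezh2 had levels of 1.70, 1.40 and 1.30 in the EZH2-KO tissue, 2.87 and 3.08 in glioma cells, 1.98 and 3.21 in neural stem cells, and -0.001 and -0.78 in astrocytes. It was thus lower in tissue than in glioma cells and above astrocytes on all arrays; whether its probe lies in the deleted part is not known. Arrays of 1 group differed in their markers. Neural stem cell array 1 had a mean level of 0.74 for 12 cell cycle markers, against 3.87 on array 2, and 2.97 for 12 astrocyte markers, against 0.08. Astrocyte arrays 1 and 2 had 1.10 and 5.45 for 9 fibroblast and meningeal markers. Oligodendrocyte precursor markers stood at 4.63, 4.13 and 4.92 in tissue, 4.78 and 4.40 in glioma cells and 4.16 and 2.96 in neural stem cells, against -0.38 and -0.83 in astrocytes.

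Cholesterol synthesis genes stood highest in neural stem cells and lowest in the EZH2-KO tissue. The group mean was lowest of the 4 in the tissue for 22 of the 33 members, against 31.3% of all genes tested, and highest in neural stem cells for 25 of 33, against 28.4% of all genes. All 8 mevalonate genes and 7 of 10 sterol genes were highest in neural stem cells, and 6 of 8 and 8 of 10 were lowest in the tissue. The 18 enzymes of these arms, each centred on the mean of its 4 group means and then averaged, lay at -0.81, -0.56 and -1.14 in tissue, 0.23 and 0.40 in glioma cells, 0.75 and 1.18 in neural stem cells, and -0.64 and -0.24 in astrocytes. No tissue array reached any glioma cell or neural stem cell array, while tissue and astrocyte arrays overlapped. Both exporters ran differently, with neither highest in neural stem cells nor lowest in the tissue.

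**Figure D1:**
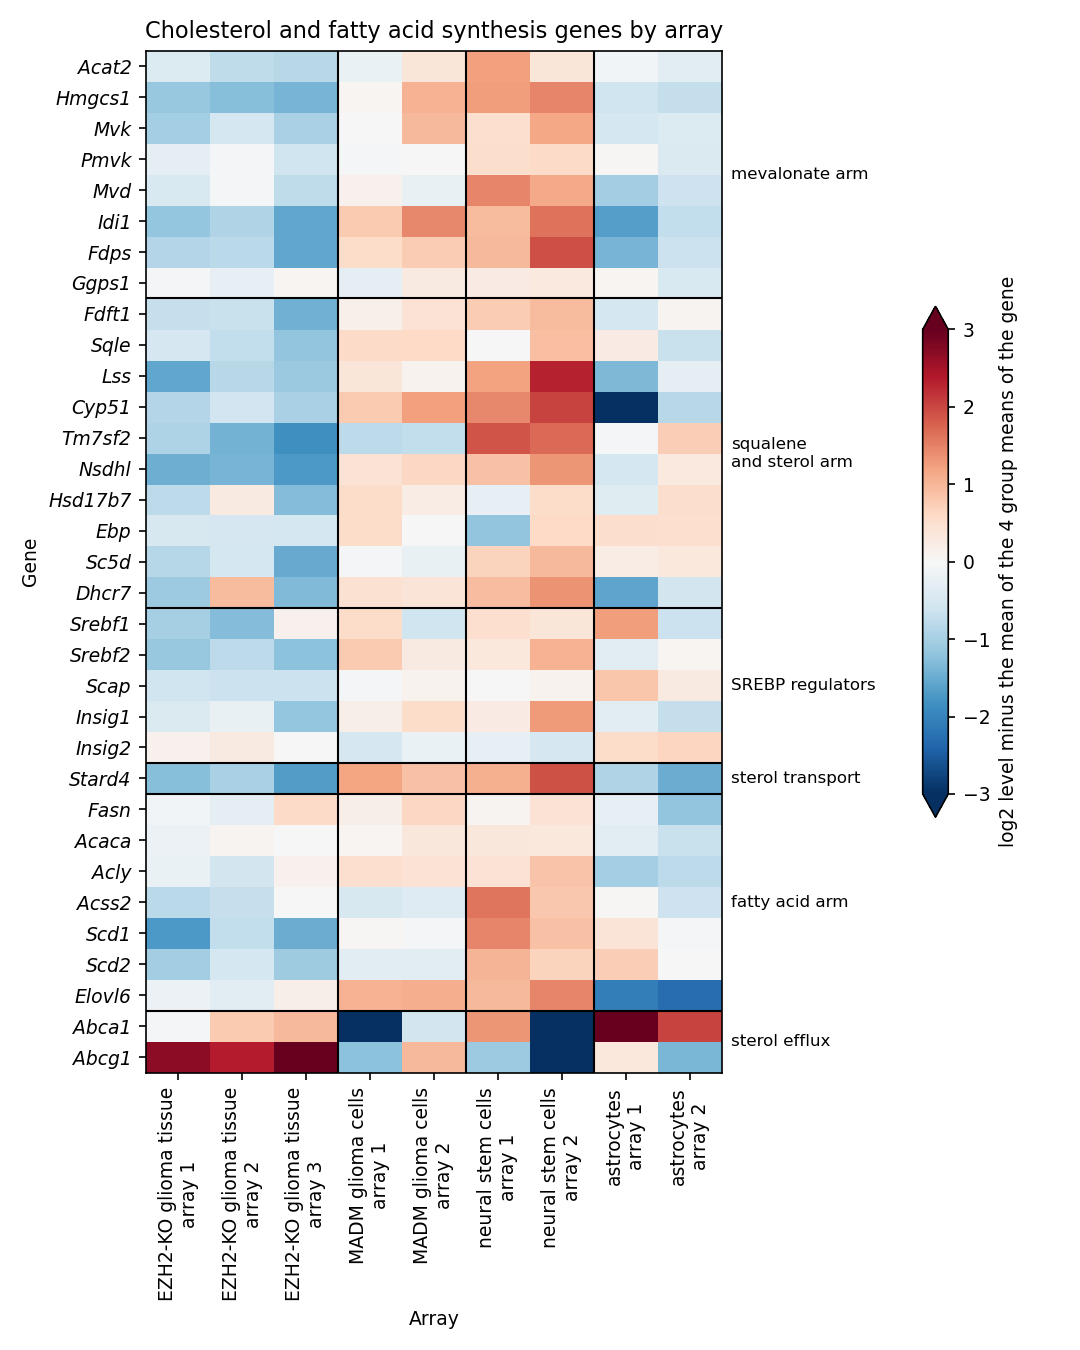
Each row is a member and each column an array; colour gives the log2 level minus the mean of the gene's 4 group means, from blue (lower) to red (higher), and lines part the groups and the roles. The 18 mevalonate and sterol enzymes average between -1.14 and -0.56 on the tissue arrays and between 0.75 and 1.18 on the neural stem cell arrays, while Abcg1 is at its highest in the tissue.

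Upstream sequence is shown for Hmgcs1, Idi1, Nsdhl and Elovl6, which passed in 3, 4, 3 and 5 of the 6 comparisons. They are the members that passed in at least 3 and had a promoter among those searched. Fdps, Stard4 and Scd1 also passed in at least 3 but had no promoter there. All of those shown were lower in tissue than in glioma cells and in neural stem cells. SREBP factors are known to act at promoters of such genes with the factors NF-Y and Sp1. The 250 bases before the RefSeq gene start are given from GRCm38.p6 on the plus strand, at chr13:119690101-119690350 for Hmgcs1, chr13:8885356-8885605 for Idi1, chrX:72918271-72918520 for Nsdhl and chr3:129532136-129532385 for Elovl6. Capitals mark matches to the sterol regulatory element TCACNCCAC, the NF-Y box CCAAT and the GC box GGGCGG, searched on both strands, so that ATTGG is a CCAAT box read from the other strand.
Hmgcs1: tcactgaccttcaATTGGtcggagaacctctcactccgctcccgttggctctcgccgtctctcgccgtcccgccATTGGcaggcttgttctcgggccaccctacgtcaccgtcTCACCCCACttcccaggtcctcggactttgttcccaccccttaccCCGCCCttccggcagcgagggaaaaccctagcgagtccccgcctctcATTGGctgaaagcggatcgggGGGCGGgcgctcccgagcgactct
Idi1: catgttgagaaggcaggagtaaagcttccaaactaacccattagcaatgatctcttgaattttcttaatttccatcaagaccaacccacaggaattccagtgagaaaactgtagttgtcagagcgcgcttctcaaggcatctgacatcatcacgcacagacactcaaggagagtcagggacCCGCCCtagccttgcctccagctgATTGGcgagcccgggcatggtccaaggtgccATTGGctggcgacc
Nsdhl: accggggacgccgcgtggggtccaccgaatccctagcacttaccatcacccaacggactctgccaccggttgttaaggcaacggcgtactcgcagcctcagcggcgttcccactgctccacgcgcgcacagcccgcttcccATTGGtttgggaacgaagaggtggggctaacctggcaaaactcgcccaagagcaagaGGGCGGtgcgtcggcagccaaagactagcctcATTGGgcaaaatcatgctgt
Elovl6: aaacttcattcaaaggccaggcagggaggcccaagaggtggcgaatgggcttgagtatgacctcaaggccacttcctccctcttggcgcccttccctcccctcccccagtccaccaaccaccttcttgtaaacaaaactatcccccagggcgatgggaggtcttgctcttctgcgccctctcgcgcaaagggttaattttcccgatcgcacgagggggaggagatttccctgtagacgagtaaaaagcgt
Hmgcs1 had 1 sterol regulatory element, 3 CCAAT boxes and 2 GC boxes, Idi1 had 2 CCAAT boxes and 1 GC box, Nsdhl had 2 and 1, and Elovl6 had none of these letters in the window. RefSeq's table held 34 promoters of 26 members. For the shares that follow, the searches ran over the 250 bases before and the 50 bases after the gene start, a longer stretch than the sequences shown. A CCAAT box lay in 22 of the 34, against 37.4% of 32851 promoters of all genes, and a GC box in 25, against 35.7%. The sterol regulatory element was in 1 of 34, against 1.24% of all, and the E-box CACGTG in 7, against 7.15%. The sterol receptor repeat, AGGTCA repeated after 4 bases, was in none, against 0.0152% of all. At that share its absence from the members' promoters says little. Of the exporters, Abca1 was among the members searched and Abcg1 was not. A match is a run of letters and was not tested as a binding site.

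In the mevalonate arm, 4 of 8 genes were lower in EZH2-KO tissue than in MADM glioma cells and 6 of 8 lower than in neural stem cells, and none passed between tissue and astrocytes. Of all genes tested, 10% and 10.7% were called lower in the first 2 comparisons, and 12.5% lower and 10.5% higher against astrocytes. Hmgcs1, the HMG-CoA synthase of the arm, had levels of 4.45, 4.29 and 4.19 in EZH2-KO tissue, 5.64 and 6.62 in glioma cells, 6.83 and 7.05 in neural stem cells, and 4.98 and 4.87 in astrocytes. Its 3 tissue arrays lay below all 6 cell arrays. Relative to glioma cells it was 3.53-fold lower in tissue (log2 difference -1.82, SE 0.32, adjusted p = 0.0101), and relative to neural stem cells 6.18-fold lower (log2 difference -2.63, SE 0.32, adjusted p = 0.00264). Between neural stem cells and astrocytes it was 4.04-fold higher (log2 difference 2.01, SE 0.40, adjusted p = 0.0328). Idi1, the isomerase that makes the reactive building block of isoprenoids, had levels of 1.96, 2.22 and 1.57 in EZH2-KO tissue, 3.93 and 4.58 in glioma cells, 4.08 and 4.76 in neural stem cells, and 1.48 and 2.40 in astrocytes. Tissue and astrocyte arrays overlapped here, and both lay below every glioma cell and neural stem cell array. Idi1 was 5.05-fold lower in tissue than in glioma cells (log2 difference -2.34, SE 0.41, adjusted p = 0.00924) and 5.67-fold lower than in neural stem cells (log2 difference -2.50, SE 0.41, adjusted p = 0.00704). In glioma cells it was 4.97-fold higher than in astrocytes (log2 difference 2.31, SE 0.48, adjusted p = 0.0308), and in neural stem cells 5.58-fold higher (log2 difference 2.48, SE 0.48, adjusted p = 0.0308).

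Fdps, which makes farnesyl diphosphate, the branch point between sterols and other isoprenoids, had levels of 3.72, 3.79 and 3.04 in EZH2-KO tissue, 5.16 and 5.36 in glioma cells, 5.57 and 6.55 in neural stem cells, and 3.22 and 3.96 in astrocytes. The order was again tissue and astrocytes below, then glioma cells, then neural stem cells, with no overlap between these 3 steps. It was 3.35-fold lower in tissue than in glioma cells (adjusted p = 0.0267), 5.83-fold lower than in neural stem cells (0.00685) and 5.55-fold higher in neural stem cells than in astrocytes (0.0283). Mvd, the decarboxylase that ends the mevalonate steps, had levels of 0.94, 1.32 and 0.63 in EZH2-KO tissue, 1.53 and 1.18 in glioma cells, 2.85 and 2.54 in neural stem cells, and 0.36 and 0.76 in astrocytes. Neural stem cells stood apart from the 3 other groups, which overlapped in part. Mvd was 3.32-fold lower in tissue than in neural stem cells (log2 difference -1.73, SE 0.30, adjusted p = 0.00934) and 4.39-fold higher in neural stem cells than in astrocytes (log2 difference 2.13, SE 0.31, adjusted p = 0.0165), while tissue and glioma cells had a log2 difference of -0.39 (adjusted p = 0.396).

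Mvk, mevalonate kinase, had levels of 3.04, 3.53 and 3.10 in EZH2-KO tissue, 4.06 and 5.03 in glioma cells, 4.56 and 5.21 in neural stem cells, and 3.54 and 3.64 in astrocytes. The tissue arrays lay under both glioma cell and both neural stem cell arrays. Mvk was lower in tissue by 2.5-fold against glioma cells (adjusted p = 0.0453) and by 3.17-fold against neural stem cells (0.0207). A further Mvk probe gave log2 differences of -0.95 and -1.14, and on the mean of the probes the call against glioma cells was lost (-1.14, adjusted p = 0.0687). Acat2, the cytosolic thiolase that joins acetyl-CoA units, had levels of 0.04, -0.30 and -0.37 in EZH2-KO tissue, 0.25 and 0.83 in glioma cells, 1.68 and 0.83 in neural stem cells, and 0.37 and 0.13 in astrocytes. It was 2.77-fold lower in tissue than in neural stem cells (log2 difference -1.47, SE 0.34, adjusted p = 0.0241) and passed in no other comparison. Pmvk, phosphomevalonate kinase, and Ggps1, which makes the lipid tail for protein prenylation, passed in none. Ggps1 had the smallest differences of the arm, with 2.05, 1.82 and 2.12 in tissue, 1.79 and 2.35 in glioma cells, 2.33 and 2.37 in neural stem cells and 2.14 and 1.61 in astrocytes.

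Single arrays carried several of these calls. Against glioma cells, Hmgcs1 and Idi1 did not pass without glioma cell array 2 (adjusted p = 0.0502 and 0.058). Mvk did not without any tissue array or glioma cell array 2 (reaching 0.238, log2 difference -1.81 to -0.83), nor did Fdps without tissue array 1 or 3 or either glioma cell array (reaching 0.117). Against neural stem cells, the calls of Hmgcs1, Mvd and Fdps held when any 1 array was omitted. That of Idi1 was lost on omitting neural stem cell array 2 (0.0561), that of Mvk without tissue array 1 or 3 or neural stem cell array 2 (reaching 0.13), and that of Acat2 without tissue array 2 or 3 or neural stem cell array 1 (reaching 0.0952). Between neural stem cells and astrocytes, Hmgcs1, Mvd and Idi1 lost their calls when any 1 of the 4 arrays was omitted (adjusted p reaching 0.127, 0.0724 and 0.122) and Fdps with all but neural stem cell array 1 (reaching 0.108). Idi1 in glioma cells against astrocytes lost its call with each of the 4 (reaching 0.126). None of the left-out fits turned a direction.

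**Figure D2:**
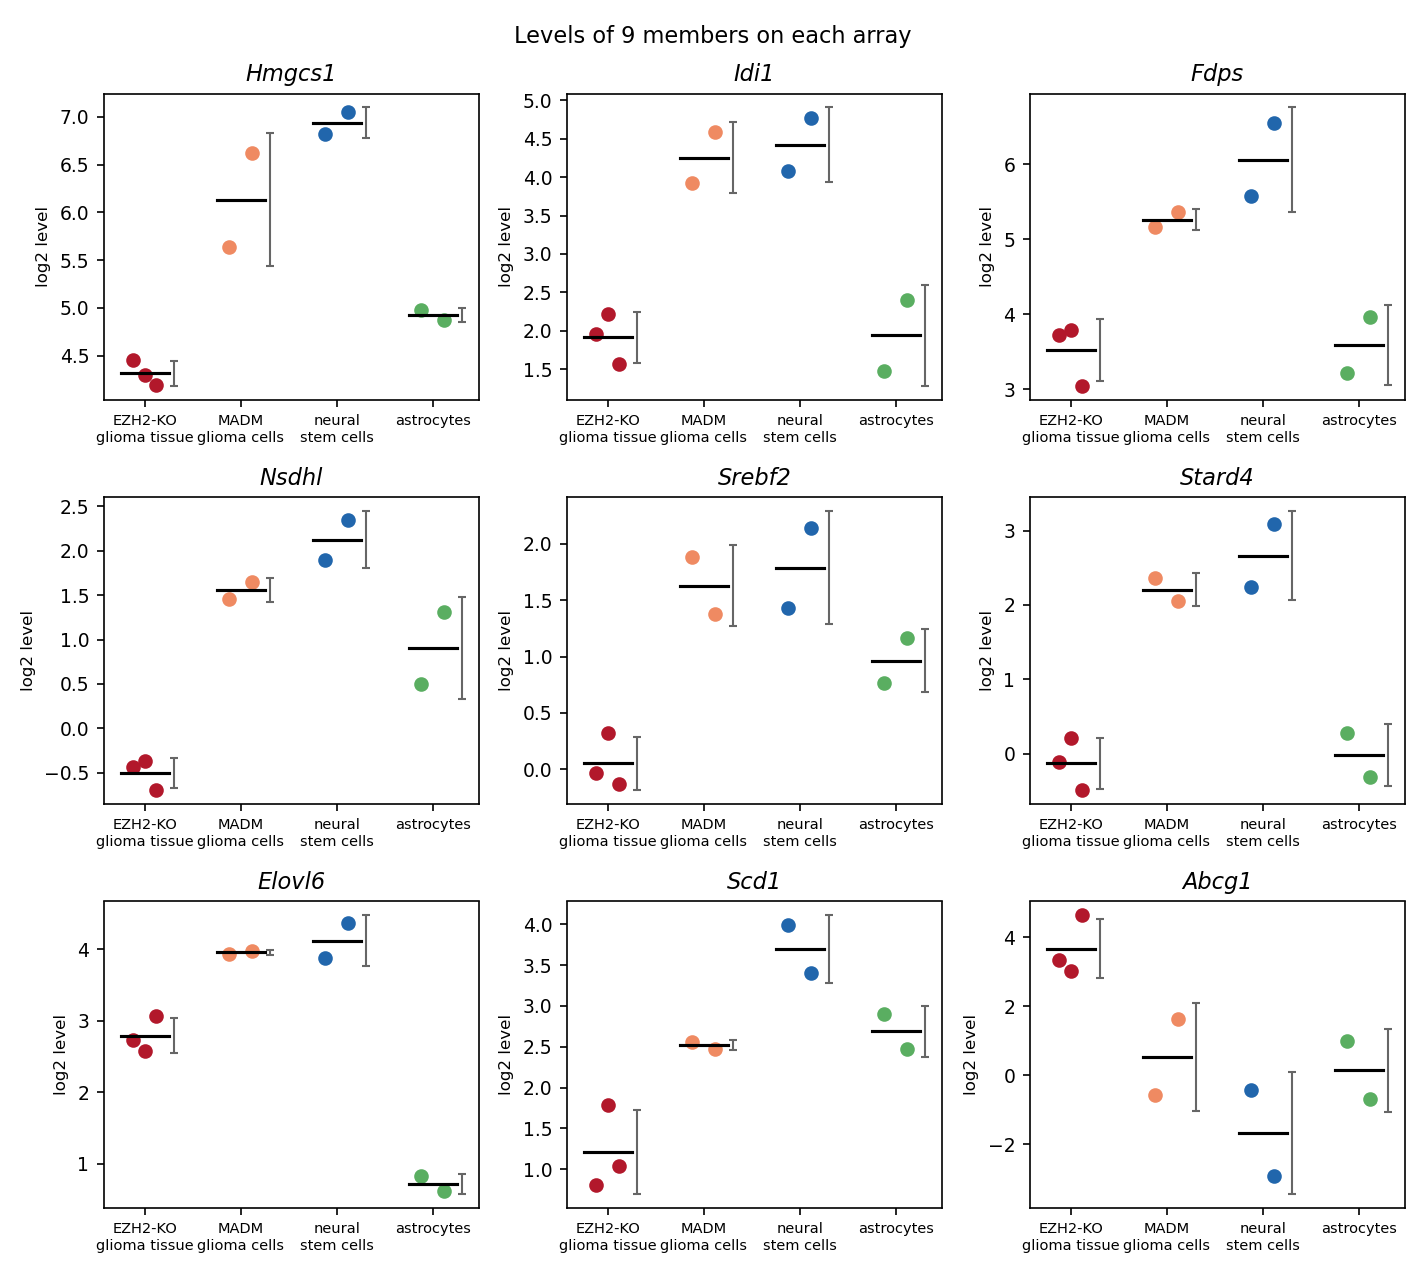
Points are the log2 levels of 9 members on each array, lines the group means and bars the SD (3 tissue arrays, 2 arrays in each other group). For Hmgcs1, Nsdhl, Srebf2 and Scd1 the 3 tissue arrays lie below all 6 cell arrays, while for Abcg1 they lie above all 6, between 3.02 and 4.63. The share of all genes with such a separation was not counted.

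In the squalene and sterol arm, 3 of 10 genes were lower in EZH2-KO tissue than in glioma cells, 6 lower than in neural stem cells and 3 lower than in astrocytes, and none was higher in any of these. Among all genes, 10%, 10.7% and 12.5% were called lower in these comparisons, and 7.65%, 7.91% and 10.5% higher. Nsdhl, a dehydrogenase that removes methyl groups from sterols, was lower in tissue in all 3 comparisons. Its levels were -0.44, -0.37 and -0.69 in EZH2-KO tissue, 1.46 and 1.65 in glioma cells, 1.90 and 2.35 in neural stem cells, and 0.50 and 1.31 in astrocytes. All 3 tissue arrays lay below all 6 cell arrays. The tissue was 4.15-fold below glioma cells (log2 difference -2.05, SE 0.32, adjusted p = 0.00581), 6.16-fold below neural stem cells (log2 difference -2.62, SE 0.32, adjusted p = 0.00242) and 2.65-fold below astrocytes (log2 difference -1.41, SE 0.32, adjusted p = 0.0182). A further Nsdhl probe gave -0.99 against astrocytes, just under 2-fold. Tm7sf2, a sterol reductase, had levels of 1.27, 0.80 and 0.36 in EZH2-KO tissue, 1.43 and 1.48 in glioma cells, 4.08 and 3.91 in neural stem cells, and 2.18 and 2.96 in astrocytes. Both glioma cell arrays lay below both astrocyte arrays, as they did for Sc5d. It was 9.14-fold lower in tissue than in neural stem cells (log2 difference -3.19, SE 0.35, adjusted p = 0.00181) and 3.38-fold lower than in astrocytes (log2 difference -1.76, SE 0.35, adjusted p = 0.0126). Glioma cells had a log2 difference of -2.55 (SE 0.35, adjusted p = 0.0544) to neural stem cells, which did not pass.

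Lss, the cyclase that forms the sterol rings, had levels of -1.54, -0.82 and -1.09 in EZH2-KO tissue, 0.38 and 0.12 in glioma cells, 1.24 and 2.33 in neural stem cells, and -1.32 and -0.26 in astrocytes. Neural stem cells lay above all other arrays. Lss was 7.64-fold lower in tissue than in neural stem cells (log2 difference -2.93, SE 0.45, adjusted p = 0.00583) and 5.96-fold higher in neural stem cells than in astrocytes (log2 difference 2.58, SE 0.53, adjusted p = 0.0363). Cyp51, the demethylase that acts on lanosterol next, had levels of -0.62, -0.31 and -0.70 in EZH2-KO tissue, 1.05 and 1.49 in glioma cells, 1.70 and 2.28 in neural stem cells, and -2.77 and -0.58 in astrocytes. The astrocyte arrays were far apart, so that its errors were wide. Cyp51 was 5.81-fold lower in tissue than in neural stem cells (log2 difference -2.54, SE 0.59, adjusted p = 0.0241) and 12.7-fold higher in neural stem cells than in astrocytes (log2 difference 3.66, SE 0.75, adjusted p = 0.0352). Glioma cells against astrocytes gave 2.94 (SE 0.75, adjusted p = 0.0509) and did not pass.

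Fdft1, the squalene synthase that commits carbon to sterols, had levels of 1.88, 1.90 and 1.12 in EZH2-KO tissue, 2.73 and 3.00 in glioma cells, 3.34 and 3.52 in neural stem cells, and 2.05 and 2.65 in astrocytes. It was lower in tissue by 2.35-fold against glioma cells (adjusted p = 0.0426) and by 3.47-fold against neural stem cells (0.0118). A further Fdft1 probe, well above background on only some of these arrays, gave -0.08 and -0.49, and neither call held on the mean of the probes (log2 difference -0.66 and -1.14, adjusted p = 0.322 and 0.106). Fdft1 did not pass against astrocytes. There, that probe had the opposite sign to the brightest one in neural stem cells (-1.04 against 1.08) and in glioma cells (-1.45 against 0.51). In tissue the signs were the same (-1.53 against -0.72). Sqle, squalene epoxidase, had levels of 4.25, 4.01 and 3.58 in EZH2-KO tissue, 5.33 and 5.36 in glioma cells, 4.75 and 5.66 in neural stem cells, and 5.0 and 4.09 in astrocytes. It was the member of this arm with glioma cells nearest to neural stem cells, and it was 2.64-fold lower in tissue than in glioma cells (log2 difference -1.40, SE 0.40, adjusted p = 0.049). Sc5d, a desaturase of the late steps, had levels of 1.06, 1.38 and 0.41 in EZH2-KO tissue, 1.87 and 1.69 in glioma cells, 2.58 and 2.88 in neural stem cells, and 2.14 and 2.22 in astrocytes. It was lower in tissue by 3.44-fold against neural stem cells (adjusted p = 0.0106) and by 2.34-fold against astrocytes (0.0314). Dhcr7, the reductase of the last step, had levels of -0.12, 1.93 and -0.35 in EZH2-KO tissue, 1.44 and 1.36 in glioma cells, 1.91 and 2.34 in neural stem cells, and -0.60 and 0.43 in astrocytes. Tissue array 2 stood well above the other tissue arrays. Dhcr7 was 4.63-fold higher in neural stem cells than in astrocytes (log2 difference 2.21, SE 0.42, adjusted p = 0.0303) and did not pass between tissue and neural stem cells (-1.64 (SE 0.68, adjusted p = 0.128)). Hsd17b7, a sterol ketoreductase, and Ebp, a sterol isomerase, passed in no comparison, with log2 differences between -0.99 and 0.31 for Hsd17b7.

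The calls of Nsdhl against glioma cells and neural stem cells, and those of Tm7sf2 and Lss in tissue against neural stem cells, held when any 1 array was omitted. Nsdhl against astrocytes was lost without tissue array 3 or astrocyte array 2 (adjusted p reaching 0.109) and Tm7sf2 against astrocytes without astrocyte array 2 (0.0789). Fdft1 and Sqle against glioma cells and Cyp51 in tissue against neural stem cells were lost when any 1 of the 5 arrays was omitted (reaching 0.184, 0.174 and 0.141). Fdft1 and Sc5d in tissue against neural stem cells were lost on omitting neural stem cell array 2 (0.075 and 0.073), and Sc5d against astrocytes without tissue array 1 or 3 or either astrocyte array (reaching 0.129). Between neural stem cells and astrocytes, Lss was lost on omitting neural stem cell array 2 or either astrocyte array (reaching 0.126). Cyp51 and Dhcr7 were lost there without astrocyte array 1 or either neural stem cell array (reaching 0.146 and 0.121).

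Of the 5 SREBP regulators, 1 was lower in EZH2-KO tissue than in glioma cells and in neural stem cells, Srebf2, and 1 lower than in astrocytes, Scap. None was higher, and none passed between the kinds of cells. The shares of all genes called lower in the 3 tissue comparisons were 10%, 10.7% and 12.5%. Srebf2, the SREBP that acts mainly on cholesterol genes, had levels of -0.03, 0.32 and -0.13 in EZH2-KO tissue, 1.89 and 1.38 in glioma cells, 1.44 and 2.14 in neural stem cells, and 0.77 and 1.16 in astrocytes. All tissue arrays lay below all cell arrays. It was 2.99-fold lower in tissue than in glioma cells (log2 difference -1.58, SE 0.33, adjusted p = 0.0172) and 3.33-fold lower than in neural stem cells (log2 difference -1.74, SE 0.33, adjusted p = 0.0118), while the difference to astrocytes was -0.91 (SE 0.33, adjusted p = 0.0808). A further Srebf2 probe gave -0.56 against glioma cells and -0.89 against neural stem cells, both under 2-fold, and on the mean of the probes neither passed (-1.07 and -1.31, adjusted p = 0.0914 and 0.0502). Scap, the escort protein that carries SREBPs to the Golgi, had levels of 3.69, 3.65 and 3.66 in EZH2-KO tissue, 4.25 and 4.40 in glioma cells, 4.28 and 4.40 in neural stem cells, and 5.14 and 4.58 in astrocytes. It was 2.28-fold lower in tissue than in astrocytes (log2 difference -1.19, SE 0.25, adjusted p = 0.0149), and the astrocyte arrays were the highest. Srebf1, the SREBP that acts mainly on fatty acid genes, had levels of -1.26, -1.55 and -0.13 in EZH2-KO tissue, 0.29 and -0.85 in glioma cells, 0.24 and 0.11 in neural stem cells, and 1.00 and -0.90 in astrocytes and passed nowhere. Insig1 and Insig2, the retention proteins, also passed in no comparison. Insig1, itself an SREBP target, had a log2 difference of -1.37 (SE 0.41, adjusted p = 0.0547) in tissue against neural stem cells, and Insig2 was the only regulator whose tissue mean was not the lowest. The call of Srebf2 against glioma cells was lost without tissue array 3 or glioma cell array 1 (adjusted p reaching 0.116), that against neural stem cells without neural stem cell array 2 (0.0795), and that of Scap without astrocyte array 1 (0.0958).

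Stard4, a carrier that moves cholesterol between membranes and is an SREBP target, followed the mevalonate genes. It had levels of -0.11, 0.20 and -0.49 in EZH2-KO tissue, 2.36 and 2.05 in glioma cells, 2.24 and 3.08 in neural stem cells, and 0.28 and -0.31 in astrocytes. Tissue and astrocyte arrays overlapped, and both lay below all glioma cell and neural stem cell arrays. Stard4 was 5.05-fold lower in tissue than in glioma cells (log2 difference -2.34, SE 0.37, adjusted p = 0.00625) and 6.92-fold lower than in neural stem cells (log2 difference -2.79, SE 0.37, adjusted p = 0.00333). It was 4.67-fold higher in glioma cells than in astrocytes (log2 difference 2.22, SE 0.41, adjusted p = 0.0241) and 6.39-fold higher in neural stem cells than in astrocytes (log2 difference 2.68, SE 0.41, adjusted p = 0.0183). Both tissue calls held when any 1 array was omitted. The call between glioma cells and astrocytes was lost with each of the 4 (adjusted p reaching 0.101), and that between neural stem cells and astrocytes on omitting neural stem cell array 2 or either astrocyte array (reaching 0.0819).

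In the fatty acid arm, 2 of 7 genes were lower in EZH2-KO tissue than in glioma cells, 4 lower than in neural stem cells, and 2 lower and 1 higher than in astrocytes. Glioma cells and neural stem cells each had 2 higher than astrocytes and none lower. Among all genes, 10%, 10.7% and 12.5% were called lower in the 3 tissue comparisons, and 10.5% higher against astrocytes. In glioma cells and in neural stem cells, 9.74% and 7.15% of all genes were higher than in astrocytes, and 9.63% and 7.76% lower. Elovl6, which lengthens saturated fatty acids, passed in 5 of the 6 comparisons. Its levels were 2.73, 2.58 and 3.06 in EZH2-KO tissue, 3.93 and 3.98 in glioma cells, 3.87 and 4.37 in neural stem cells, and 0.82 and 0.62 in astrocytes. The astrocyte arrays lay below every other array, tissue lay between, and glioma cells overlapped neural stem cells. Elovl6 was 9.39-fold higher in glioma cells than in astrocytes (log2 difference 3.23, SE 0.30, adjusted p = 0.00425), 10.5-fold higher in neural stem cells (log2 difference 3.40, SE 0.30, adjusted p = 0.00587) and 4.2-fold higher in tissue (log2 difference 2.07, SE 0.27, adjusted p = 0.00269). It was lower in tissue by 2.24-fold against glioma cells (log2 difference -1.16, SE 0.27, adjusted p = 0.0261) and by 2.51-fold against neural stem cells (log2 difference -1.33, SE 0.27, adjusted p = 0.0155). Its 3 calls against astrocytes held when any 1 array was omitted. Its call in tissue against glioma cells was lost without tissue array 1 or 2 or either glioma cell array (adjusted p reaching 0.117), and that against neural stem cells without neural stem cell array 2 (0.0972).

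Scd1 and Scd2, desaturases that make monounsaturated fatty acids, were lower in tissue than in both normal cell types. Scd1 had levels of 0.80, 1.78 and 1.04 in EZH2-KO tissue, 2.56 and 2.48 in glioma cells, 3.99 and 3.40 in neural stem cells, and 2.91 and 2.47 in astrocytes. All tissue arrays lay below all cell arrays. It was lower in tissue by 2.48-fold against glioma cells (log2 difference -1.31, SE 0.36, adjusted p = 0.0441), by 5.61-fold against neural stem cells (log2 difference -2.49, SE 0.36, adjusted p = 0.00485) and by 2.79-fold against astrocytes (log2 difference -1.48, SE 0.36, adjusted p = 0.0245). Scd2, the main form in brain, had levels of 6.11, 6.63 and 6.07 in EZH2-KO tissue, 6.82 and 6.83 in glioma cells, 8.16 and 7.82 in neural stem cells, and 7.90 and 7.14 in astrocytes. Here glioma cells stood below neural stem cells and astrocytes too. The tissue was 3.29-fold below neural stem cells (log2 difference -1.72, SE 0.32, adjusted p = 0.0117) and 2.37-fold below astrocytes (log2 difference -1.25, SE 0.32, adjusted p = 0.029). Scd1 and Scd2 held against neural stem cells when any 1 array was omitted. Scd1 against glioma cells or astrocytes was lost without tissue array 1 or 3 or either array of the other group (adjusted p reaching 0.178 and 0.136), and Scd2 against astrocytes without tissue array 1 or 3 or astrocyte array 1 (reaching 0.173).

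Of the 4 enzymes that supply and build the chain, 2 passed in some comparison. Acly, ATP citrate lyase, which supplies cytosolic acetyl-CoA, had levels of 4.82, 4.46 and 5.14 in EZH2-KO tissue, 5.52 and 5.45 in glioma cells, 5.44 and 5.87 in neural stem cells, and 4.0 and 4.24 in astrocytes. It was higher than in astrocytes by 2.58-fold in glioma cells (log2 difference 1.37, SE 0.29, adjusted p = 0.0334) and by 2.9-fold in neural stem cells (log2 difference 1.54, SE 0.29, adjusted p = 0.0298). A further Acly probe gave log2 differences of 0.63 and 1.45 in these, and on the mean of the probes the first did not pass (0.999, adjusted p = 0.0908). Acss2, which makes acetyl-CoA from acetate, had levels of 0.90, 1.01 and 1.72 in EZH2-KO tissue, 1.24 and 1.33 in glioma cells, 3.33 and 2.53 in neural stem cells, and 1.75 and 1.09 in astrocytes. Neural stem cells lay above all other arrays, and the tissue was 3.29-fold lower than they were (log2 difference -1.72, SE 0.38, adjusted p = 0.0214). A further Acss2 probe gave -0.998 in that comparison, just under 2-fold. Fasn, fatty acid synthase, had levels of 0.82, 0.60 and 1.46 in EZH2-KO tissue, 1.07 and 1.51 in glioma cells, 0.97 and 1.32 in neural stem cells, and 0.64 and -0.28 in astrocytes and passed in no comparison. The nearest to passing of its differences was 1.11 (SE 0.41, adjusted p = 0.115) in glioma cells against astrocytes, and its 95% interval in tissue against neural stem cells ran from -1.10 to 0.72. Acaca, acetyl-CoA carboxylase, passed in none either, with log2 differences between -0.36 and 0.83 on its brightest probe. In tissue against glioma cells that probe gave -0.23, while further Acaca probes gave 0.93, 0.44 and -0.22. Acly against astrocytes was lost when any 1 of the 4 arrays was omitted for glioma cells (adjusted p reaching 0.135) and on omitting neural stem cell array 2 or either astrocyte array for neural stem cells (reaching 0.116). Acss2 was lost without tissue array 1 or 2 or neural stem cell array 1 (reaching 0.0898).

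The exporters differed most within groups. Abcg1, an LXR target that passes sterols to lipoprotein particles, was higher in EZH2-KO tissue than in both normal cell types. It had levels of 3.34, 3.02 and 4.63 in EZH2-KO tissue, -0.57 and 1.63 in glioma cells, -0.43 and -2.92 in neural stem cells, and 0.99 and -0.70 in astrocytes. The 3 tissue arrays lay above all 6 cell arrays. The tissue was 40.3-fold above neural stem cells (log2 difference 5.33, SE 0.99, adjusted p = 0.0112) and 11.4-fold above astrocytes (log2 difference 3.52, SE 0.99, adjusted p = 0.038), and its difference to glioma cells was 3.13 (SE 0.99, adjusted p = 0.0645). The first call was lost on omitting neural stem cell array 2 (adjusted p = 0.0771, log2 difference 4.09 to 6.58) and the other when any 1 of the 5 arrays was omitted (reaching 0.197). Abca1, also an LXR target, which loads cholesterol onto apolipoproteins, had levels of 1.82, 2.67 and 2.86 in EZH2-KO tissue, -1.84 and 1.35 in glioma cells, 3.22 and -1.54 in neural stem cells, and 5.14 and 3.91 in astrocytes. Its arrays differed within neural stem cells and within glioma cells by more than tissue and astrocyte means did, and it passed in no comparison. Its 95% interval in glioma cells against astrocytes ran from -9.36 to -0.17. Microglia markers differed between the groups, as given further on, and their part in the exporters' values was not tested.

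**Figure D3:**
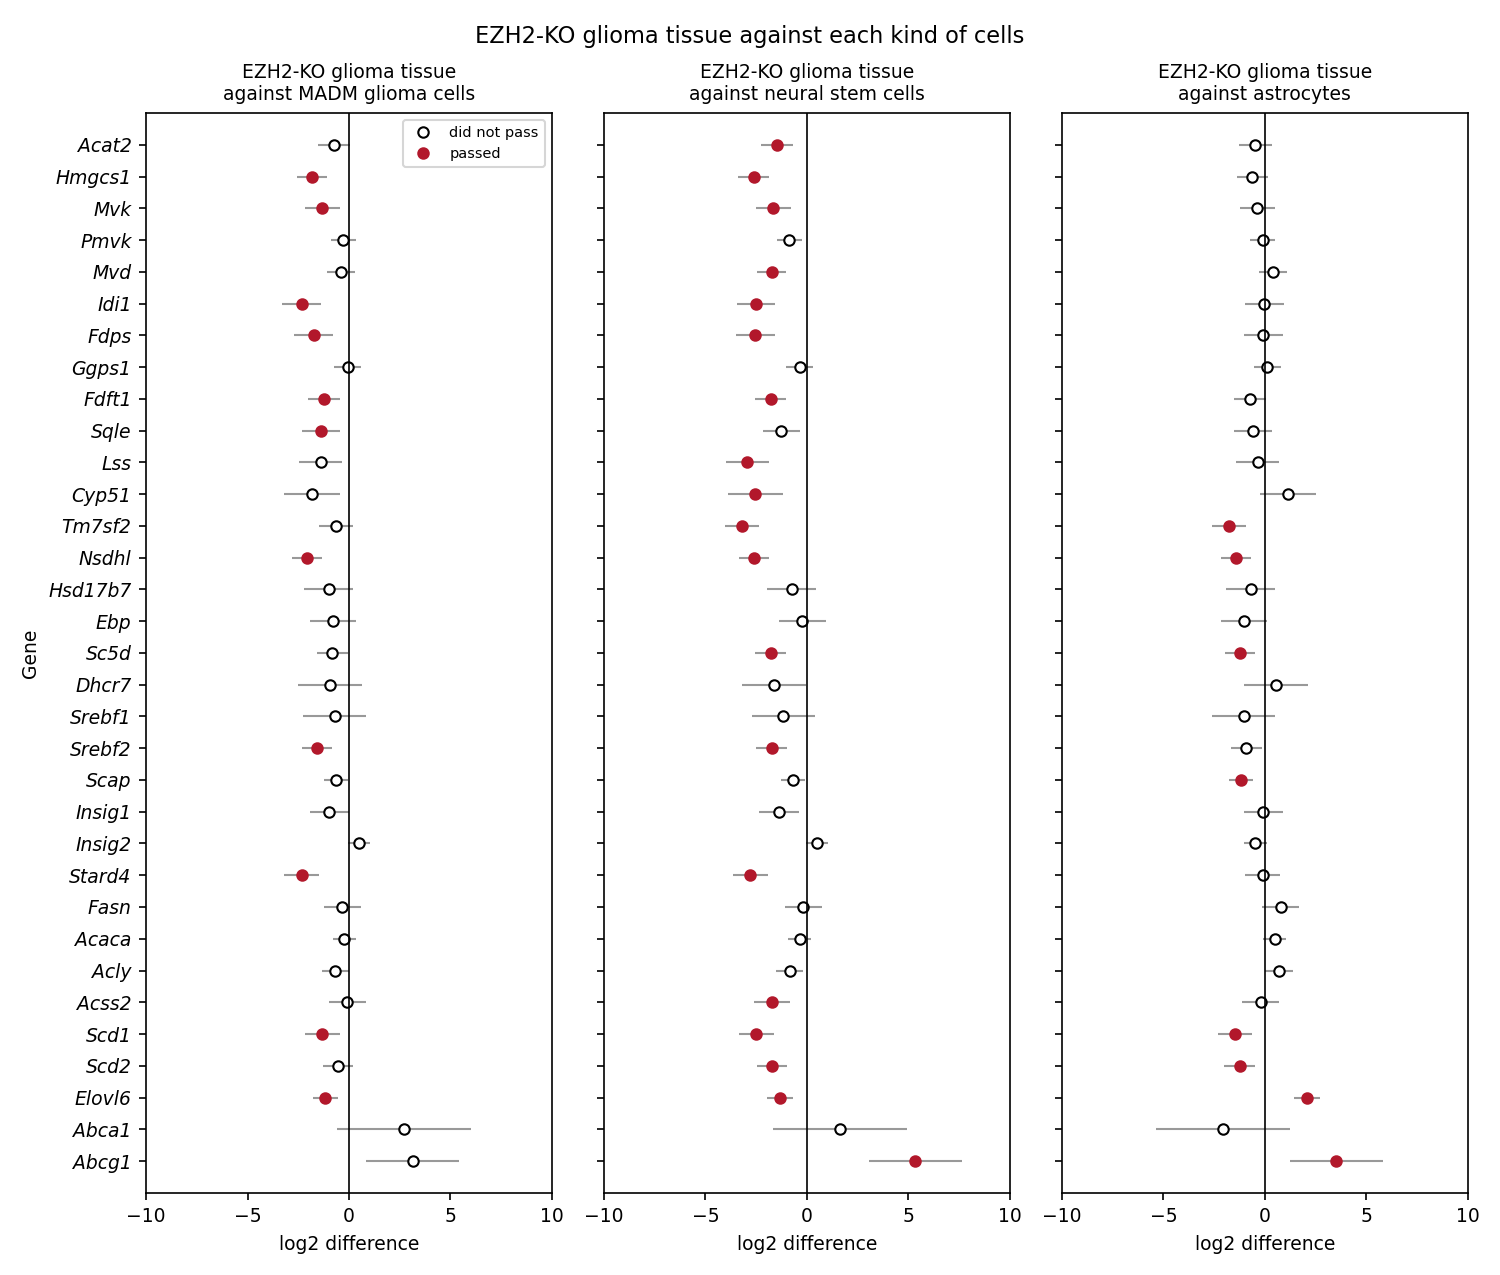
Points give each member's fitted log2 difference of EZH2-KO glioma tissue to glioma cells, neural stem cells and astrocytes, with 95% intervals as lines; filled points passed the limma test. In the tissue, 11, 18 and 6 members are lower and 0, 1 and 2 higher.

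Set against glioma cells, the EZH2-KO tissue had 11 of 33 members lower and 0 higher, where 10% of all genes were called lower and 7.65% higher. The median member difference was -0.83, against -0.20 over all genes. Set against neural stem cells, 18 members were lower and 1, Abcg1, was higher, where 10.7% of all genes were called lower and 7.91% higher, and the medians were -1.64 for members and -0.25 for all genes. Set against astrocytes, 6 members were lower (Tm7sf2, Nsdhl, Sc5d, Scap, Scd1 and Scd2) and 2 higher (Elovl6 and Abcg1), where 12.5% of all genes were called lower and 10.5% higher. The medians there were -0.37 and -0.06. The 3 comparisons share the tissue arrays. In the mevalonate arm the median was -1.04 against glioma cells and -1.70 against neural stem cells, and -0.09 against astrocytes, where the largest difference was -0.61 (SE 0.32, adjusted p = 0.202) for Hmgcs1. Against glioma cells the count was 3 without glioma cell array 2 and 5 without glioma cell array 1, tissue array 1 or tissue array 3. Against neural stem cells it was 11 without neural stem cell array 2. Against astrocytes it was 3 without tissue array 3 or astrocyte array 1, and 4 without tissue array 1 or astrocyte array 2. The unscaled table gave 1 higher and 4 lower against glioma cells, 1 higher and 9 lower against neural stem cells, and 2 higher and 2 lower against astrocytes. The tissue arrays were on another slide, in another scan and with another scanner software version than all cell arrays, and these and the difference between tissue and cells cannot be told apart.

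Markers of other cells moved with these comparisons. The 16 microglia and macrophage markers had summed levels of 43.3 to 62.0 in tissue, -71.4 and -65.9 in glioma cells, -14.1 and -42.6 in neural stem cells, and 44.7 and 52.0 in astrocytes. Of the 16, 14 were higher in tissue than in glioma cells, 15 higher than in neural stem cells and 0 called against astrocytes. All 16 were well above background on every tissue and astrocyte array, and 8 and 9 of them on the glioma cell arrays. Endothelial markers were higher in tissue in 3, 4 and 2 of 7 against glioma cells, neural stem cells and astrocytes. In bulk RNA, fewer cells of a type and less RNA per cell cannot be told apart, and the part of this mixture in the members' differences was not tested. Astrocyte markers averaged 1.64 to 2.82 in tissue, -1.87 and -1.71 in glioma cells, 2.97 and 0.08 in neural stem cells, and 4.04 and 2.88 in astrocytes. In tissue 8 of 12 were higher than in glioma cells, 1 was higher and 1 lower than in neural stem cells, and 2 were lower than in astrocytes. Mature oligodendrocyte markers averaged 1.69 to 3.14 in tissue, -0.65 and 0.03 in glioma cells, -0.03 and -2.31 in neural stem cells, and -1.94 and -1.86 in astrocytes, and 2, 3 and 4 of 8 were higher in tissue in the 3 comparisons. Neuron markers averaged 2.43 to 3.76 in tissue and -0.99 to 1.62 on the cell arrays, and 2, 0 and 4 of 8 were higher in tissue. Oligodendrocyte precursor markers were higher in tissue in 0, 2 and 8 of 10. Cell cycle markers fell in tissue in 3 of 12 against glioma cells and in 2 of 12 against neural stem cells.

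**Figure D4:**
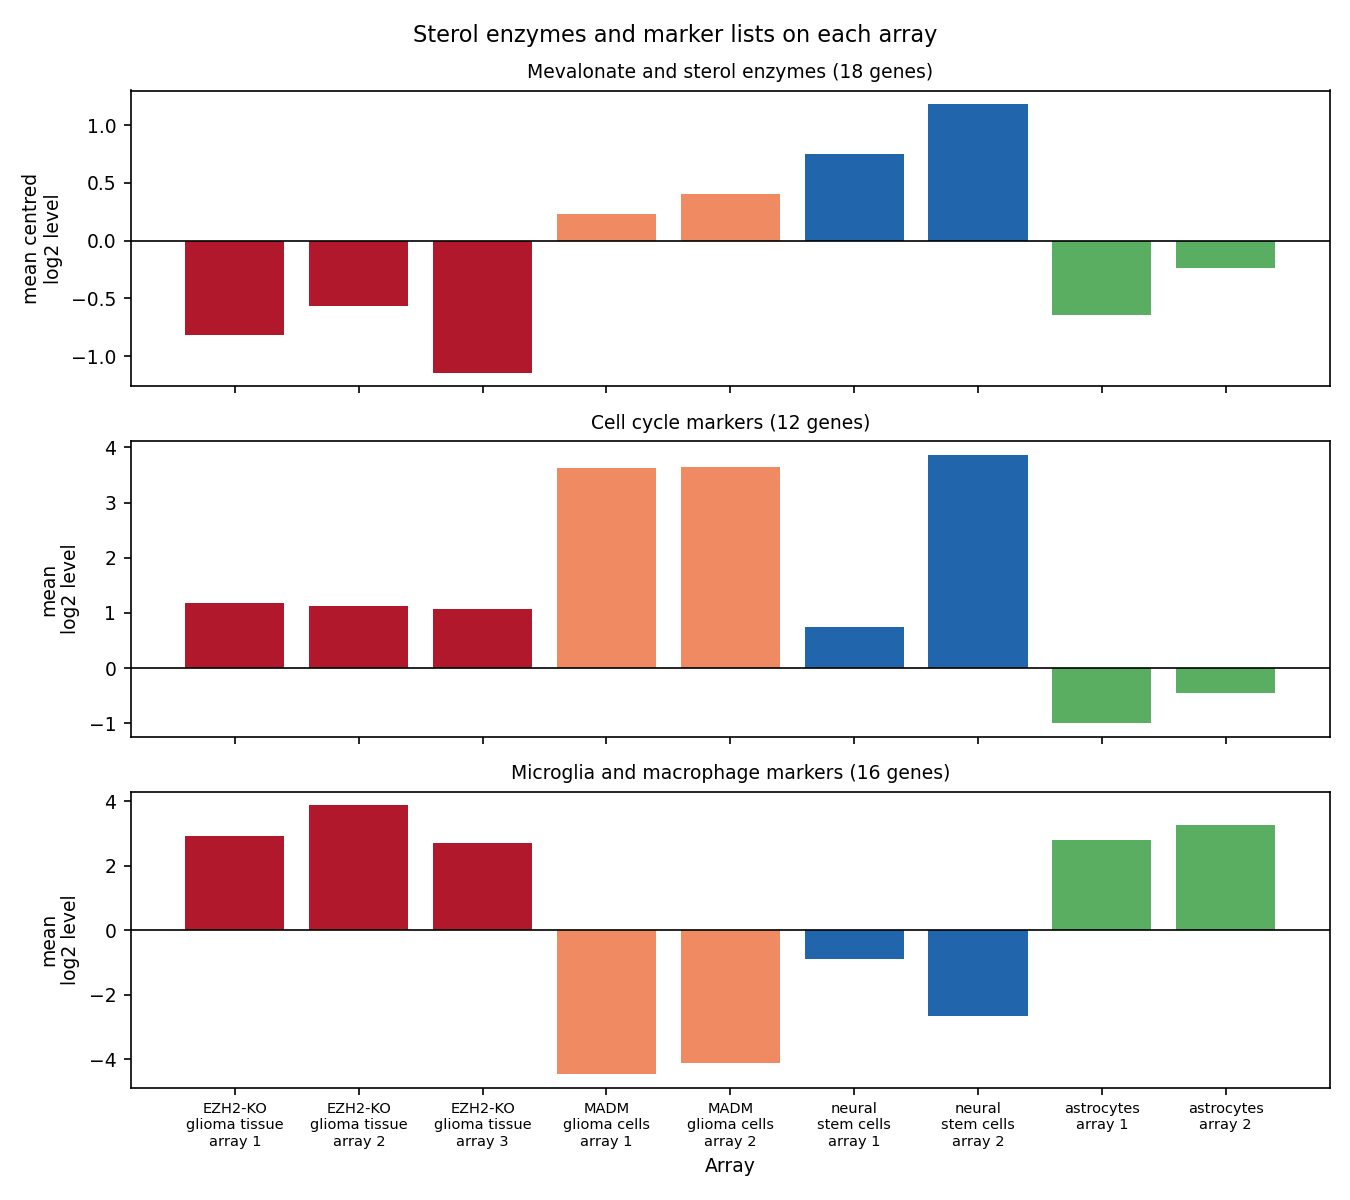
Bars give, on each array, the mean centred log2 level of the 18 mevalonate and sterol enzymes (top), and the mean log2 level of 12 cell cycle markers (middle) and of 16 microglia and macrophage markers (bottom); 0 in the lower panels is the array's 75th percentile. Tissue and astrocyte arrays have microglial means from 2.71 to 3.87. The cell cycle mean is 0.74 on neural stem cell array 1 and 3.87 on array 2, and the sterol enzyme means there are 0.75 and 1.18.

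Between the kinds of cells, some members were called higher in glioma cells and in neural stem cells than in astrocytes, and none was called lower. Some, such as Abca1 and Insig2, had lower means in both without passing. In glioma cells 4 of 33 were higher than in astrocytes (Idi1, Stard4, Acly and Elovl6) and 0 lower, where 9.74% of all genes were called higher and 9.63% lower. The count of members thus lay near that of all genes, and the member median was 0.65, against 0.19 over all genes. In neural stem cells 10 members were higher than in astrocytes and 0 lower, where 7.15% of all genes were called higher and 7.76% lower, with medians of 1.01 and 0.24. These 10 were Hmgcs1, Mvd, Idi1, Fdps, Lss, Cyp51, Dhcr7, Stard4, Acly and Elovl6. Between glioma cells and neural stem cells 0 members passed by limma, with 7 at an unadjusted p under 0.05 and 1 called with the normexp correction. There 0.68% of all genes were called higher and 0.318% lower, and the member median was -0.45, against -0.04. All 8 mevalonate genes had a lower mean in glioma cells than in neural stem cells, by -0.17 to -1.34, none of which passed. Both comparisons with astrocytes share the astrocyte arrays, and few calls held without them. In glioma cells 1 member was called on omitting astrocyte array 1 or either glioma cell array, and 2 without astrocyte array 2. In neural stem cells 1 was called on omitting neural stem cell array 2 or astrocyte array 1, 3 without astrocyte array 2 and 5 without neural stem cell array 1. With the unscaled table, whose overall median shifted to -0.29 and -0.19, they were 2 and 4.

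Marker lists differed in these comparisons as well. Microglia and macrophage markers were lower than in astrocytes in 15 of 16 in glioma cells and in 14 of 16 in neural stem cells, with summed levels as given above. Fibroblast and meningeal markers were lower in 5 of 9 and 2 of 9. Cell cycle markers were higher in 7 of 12 in glioma cells and in 0 of 12 in neural stem cells, whose 2 arrays stood apart. The part of other cells or of division rate in the members' differences was not tested.

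Of 27 other tested genes of cholesterol metabolism, those described are Msmo1, Ch25h, Nr1h3 and Cyp27a1. Msmo1, the sterol methyl oxidase of the same pathway, was lower in tissue by 3.09-fold against glioma cells (log2 difference -1.63, SE 0.43, adjusted p = 0.0373) and by 6.46-fold against neural stem cells (log2 difference -2.69, SE 0.43, adjusted p = 0.00655). Ch25h, which makes an oxysterol that restrains SREBP processing, was lower in glioma cells (adjusted p = 0.00297) and in neural stem cells (adjusted p = 0.00531) than in astrocytes, and higher in tissue than in glioma cells (adjusted p = 0.00701) and in neural stem cells (adjusted p = 0.00848, lost without neural stem cell array 2). It was well above background on only 1 array of glioma cells and 1 of neural stem cells, so no size is given for these. In tissue it was 13.7-fold lower than in astrocytes (log2 difference -3.77, SE 0.52, adjusted p = 0.00323). Nr1h3, the sterol receptor LXR alpha, had log2 differences of -4.87 (SE 0.43, adjusted p = 0.00387) in glioma cells and -3.45 (SE 0.43, adjusted p = 0.0109) in neural stem cells against astrocytes, and of 2.49 (SE 0.38, adjusted p = 0.00578) in tissue against glioma cells. In tissue against astrocytes it was lower, with a log2 difference of -2.38 (SE 0.38, adjusted p = 0.00565). Cyp27a1, a sterol hydroxylase, was at least 2.24-fold lower in glioma cells and at least 2.57-fold lower in neural stem cells than in astrocytes, as it was not well above background in either. With normexp background correction neither difference passed (adjusted p = 0.302 and 0.289). The call of Msmo1 was lost without tissue array 1 or 3 or either glioma cell array (adjusted p reaching 0.144), and against neural stem cells without neural stem cell array 2 (0.0528). That of Nr1h3 between neural stem cells and astrocytes was lost without either astrocyte array (reaching 0.0542). In all, 4 of these 27 genes were higher and 2 lower in tissue than in glioma cells, where 7.65% of all genes were higher and 10% lower. Against neural stem cells 3 were higher and 4 lower, where the shares of all genes were 7.91% and 10.7%, and against astrocytes 2 and 3, where they were 10.5% and 12.5%. In glioma cells 3 were higher and 4 lower than in astrocytes (9.74% and 9.63% of all genes), in neural stem cells 4 and 3 (7.15% and 7.76%), and 0 passed between glioma cells and neural stem cells.

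Of 24 other tested fatty acid genes, those described are Fads1, Fads2, Cpt1a, Elovl2 and Pnpla3. Fads1 and Fads2, desaturases of polyunsaturated fatty acids, were lower in tissue than in neural stem cells (-1.89 (SE 0.38, adjusted p = 0.0152) and -1.81 (SE 0.39, adjusted p = 0.0181)) and than in astrocytes (-1.44 (SE 0.38, adjusted p = 0.0318) and -1.56 (SE 0.39, adjusted p = 0.0253)). Cpt1a, which admits fatty acids to mitochondria for oxidation, was the gene of this list that passed between glioma cells and neural stem cells (log2 difference -3.93, SE 0.31, adjusted p = 0.0252). It was 19.1-fold lower in glioma cells than in astrocytes (log2 difference -4.26, SE 0.31, adjusted p = 0.00304) and 5.35-fold higher in tissue than in glioma cells (log2 difference 2.42, SE 0.40, adjusted p = 0.0078). In tissue it was lower than in neural stem cells (log2 difference -1.51, SE 0.40, adjusted p = 0.0379) and than in astrocytes (log2 difference -1.84, SE 0.40, adjusted p = 0.0167). Elovl2, an elongase of polyunsaturated fatty acids, was higher than in astrocytes in glioma cells (4.13), neural stem cells (5.79) and tissue (3.90), on the log2 scale. In tissue it was lower than in neural stem cells (log2 difference -1.89, SE 0.51, adjusted p = 0.0384), a call lost when any 1 of the 5 arrays was omitted (reaching 0.204). Pnpla3, a lipid droplet protein and SREBP target, was at least 22-fold, 12.9-fold and 10.4-fold higher in glioma cells, neural stem cells and tissue than in astrocytes, where it was not well above background. Of the 24 genes, 1 was higher and 2 lower in tissue than in glioma cells, 0 and 8 against neural stem cells, and 5 and 6 against astrocytes, with the shares of all genes as given above. Glioma cells and neural stem cells each had 5 higher and 1 lower than astrocytes. The call of Cpt1a between glioma cells and neural stem cells was lost when any 1 of the 4 arrays was omitted (adjusted p reaching 0.105). In tissue its call against neural stem cells was lost without tissue array 1 or 3 or either neural stem cell array, and that against astrocytes without either astrocyte array (reaching 0.147 and 0.0801). Fads1 was lost against neural stem cells without either of their arrays (reaching 0.0646), and Fads2 without tissue array 1 or 3 or neural stem cell array 1 (reaching 0.0784). Against astrocytes both were lost without tissue array 1 or 3 or astrocyte array 1 (reaching 0.187 and 0.147). Pnpla3 in neural stem cells against astrocytes was lost without astrocyte array 2 (0.055) and with a stricter filter on dim probes (0.067).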

How the data were processed

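RNA of 9 samples was labelled with Cy3 and hybridised to single-colour Agilent 8x60K arrays, per the labels' protocols. The deposited files are scanner output, with a linear intensity per spot, and per the file headers Agilent Feature Extraction 10.7.3.1 (tissue) or 10.7.1.1 (cells) subtracted the background. Version 10.7.3.1 is the one in the submitters' processing notes. A deposited table of log2 values matched the log2 processed signal, unscaled, within 0.01 for at least 99.2% of the probes on each array, and was used as an alternative only.

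Spots flagged as outliers (96 to 164 of 59305 on an array) were dropped, and a probe's spots were averaged on the log2 scale. Each array's 75th percentile over non-control spots was then subtracted. Probes entered a fit if some group had them well above background on all of its arrays, and the brightest such probe stood for its gene. The fit with limma 3.58.1 (R 4.3.3, lmFit and eBayes, two-sided, Benjamini-Hochberg over all genes) took the 6 cell arrays (24868 genes, 3 residual degrees of freedom) or, for tissue, all 9 (25398 genes, 5 residual degrees of freedom). It was tested on simulated data, in which 200 genes were changed, in equal parts by a log2 difference of 2 or 4. Of those changed by 2, 0 to 3 were called in the comparisons of cells and 34 to 43 in those with tissue. Of those changed by 4, 44 to 51 and 74 to 81 were called. A gene that did not pass may thus still differ. Most comparisons of the data had far more than 200 genes called, so these rates may not carry over. For a bound, each array of the dimmer group was given the lowest signal well above background, or the gene's own where that was higher, and the brighter group's mean was set against it.

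Members and lists were chosen with earlier results of these data known. All members are named, with array values for those called in at least 1 comparison; of other pathway genes, up to 4 called genes of largest fold in each direction of a list and comparison may be named. The labels do not say that replicates are separate animals or cultures, so p-values measure only how these samples vary, which may be technical. Promoters are RefSeq's, GRCm38.p6. Files were read with Python 3.11.15, numpy 2.4.6 and pandas 2.3.3, and figures drawn with matplotlib 3.10.9. Alternatives were other scaling, background correction, filters, probes, samples in the fit, and the replicate number as a block.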

Additional observations from a re-analysis of the deposited data

How the results depend on the processing

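No direction of the 52 called pairs of member and comparison turned under any setting run, and 14 pairs stayed called with each array left out. In 21 called pairs that a further probe also measured (9 probes), 0 had the opposite sign, and in 8 that probe differed by less than 2-fold. Pairs not called are left out of this count, and in some of them the signs differed, as for Fdft1 in glioma cells and in neural stem cells against astrocytes. The mean of the probes ended 6 of the 52 calls. With 1 array left out, members called numbered 1 to 2 (glioma cells against astrocytes), 0 to 0 (against neural stem cells), 1 to 5 (neural stem cells against astrocytes), and in tissue 3 to 8 (against glioma cells), 11 to 18 (neural stem cells) and 3 to 7 (astrocytes). In place of 4 in glioma cells against astrocytes there were 8 with normexp, 2 with the unscaled table and 7 with all 9 arrays in the fit. In place of 0 against neural stem cells, normexp and all 9 arrays gave 1 each. In place of 10 in neural stem cells against astrocytes, the unscaled table gave 4 and a fit of these groups alone 6. In tissue, 11 members against glioma cells became 5 with quantile normalization, 5 with unscaled values and 7 with no filter, and unscaled values gave 10 in place of 19 against neural stem cells and 4 in place of 8 against astrocytes. The unscaled table put the median of all genes at 0.38, 0.29 and 0.04 in these tissue comparisons. Members' medians less that median could not differ from those with scaling, because scaling shifts all genes of an array alike. These counts, and those with 1 array left out, are given without the share of all genes called in the same fit. They thus do not show members moving apart from all genes. The cause of these moves was not tested.

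Replicate numbers did not pair the arrays: deviations of arrays of the same number correlated at -0.16 to 0.12. With the replicate block, tissue had 4 members called against glioma cells and 1 against astrocytes. For tissue, normexp used the median spot signal, since the tissue files lack the mean. A slide or scan block was not run, as tissue and cells share no slide or scan. For 146 pairs not called, 15 were called in at least 1 alternative other than leaving out an array.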
